A study of Rattus norvegicus with 27 samples.

Results

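The mitochondrial respiratory chain and ATP synthase were represented by 71 genes, each read by 1 probe, among 22226 probes of an Illumina rat bead array. The genes were chosen by symbol and not by level: names beginning with Nduf, Uqcr or Atp5, the 4 succinate dehydrogenase genes Sdha to Sdhd, Cox4 to Cox8 with a suffix, Cycs and Cyc1, without symbols containing -ps. They comprised 30 subunits of complex I, 7 assembly factors of complex I (Ndufaf1 to Ndufaf7), 4 genes of complex II, 5 of complex III, cytochrome c, 11 of complex IV and 13 of complex V. No named probe carried Cyc1. Of the 71, 69 were among the 11657 probes tested; Ndufs4, of complex I, and Cox8c, of complex IV, were too dim. Ndufa10 and Ndufa10l1 are near-identical copies whose probes may read each other's RNA, so their values are uncertain.

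The arrays held total RNA from hearts of male Fisher 344 rats, 4 weeks old at the start, that inhaled coarse (6 arrays), fine (6), ultrafine (8) particles or filtered air (7) for 3 months. The series title concerns ambient particles, cardiac gene expression and markers of oxidative stress. Comparisons were made of every size with filtered air and between sizes. The labels do not give particle concentrations, nor whether each array is a separate rat, so p-values measure the spread between these arrays, which may be technical. Levels are on the log2-like scale of the deposited table, and the number of arrays limits their precision.

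The chain passes electrons from NADH through complex I, and from succinate through complex II, to ubiquinone, then through complex III and cytochrome c to complex IV, which reduces oxygen. Complexes I, III and IV pump protons out of the mitochondrial matrix, and complex V, the ATP synthase, makes ATP as the protons return. Heart muscle is among the tissues richest in these complexes, and striated muscle has its own forms of some complex IV subunits, such as Cox6a2 and Cox8b beside the widely expressed Cox6a1 and Cox8a. The tested members were mostly bright, with mean levels between 5.89 for Ndufb4 and 13.78 for Atp5po and a median of 11.82. Ndufv3 (6.55), Ndufaf2 (6.83), Atp5mc3 (6.89) and Ndufaf7 (6.96) were among the dim ones, not far above the lowest mean tested, 5.789. Small differences of such probes are uncertain.

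Promoters of 4 members are shown because their genes recur in the results: Cycs, the carrier; Sdha and Cox8a, which varied in opposite directions between arrays; and Cox6a2, the muscle form set against Cox6a1. Each sequence is the 300 bases around the gene's start in RefSeq's GRCr8 table, written 5′ to 3′ on the gene's strand. Capitals mark motif matches on either strand.

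Cycs, chr4:80984718-80985017, minus strand: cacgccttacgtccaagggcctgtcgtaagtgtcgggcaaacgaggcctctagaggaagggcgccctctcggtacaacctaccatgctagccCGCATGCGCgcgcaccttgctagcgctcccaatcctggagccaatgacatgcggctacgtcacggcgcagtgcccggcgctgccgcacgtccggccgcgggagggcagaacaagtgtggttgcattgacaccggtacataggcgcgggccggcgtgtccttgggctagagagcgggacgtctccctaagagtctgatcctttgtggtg
Sdha, chr1:30764303-30764602, plus strand: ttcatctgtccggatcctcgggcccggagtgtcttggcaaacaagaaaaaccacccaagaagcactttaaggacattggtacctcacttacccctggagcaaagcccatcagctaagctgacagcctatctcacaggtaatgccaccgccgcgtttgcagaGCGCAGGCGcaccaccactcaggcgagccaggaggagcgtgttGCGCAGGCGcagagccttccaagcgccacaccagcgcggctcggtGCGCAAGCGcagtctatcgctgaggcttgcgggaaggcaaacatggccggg
Cox8a, chr1:213833574-213833873, minus strand: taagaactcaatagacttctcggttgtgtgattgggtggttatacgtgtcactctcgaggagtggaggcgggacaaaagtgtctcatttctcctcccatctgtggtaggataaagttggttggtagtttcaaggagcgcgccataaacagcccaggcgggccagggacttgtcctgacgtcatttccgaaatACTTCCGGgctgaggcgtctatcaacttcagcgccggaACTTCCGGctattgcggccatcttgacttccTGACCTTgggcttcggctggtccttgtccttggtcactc
Cox6a2, chr1:192219667-192219966, minus strand: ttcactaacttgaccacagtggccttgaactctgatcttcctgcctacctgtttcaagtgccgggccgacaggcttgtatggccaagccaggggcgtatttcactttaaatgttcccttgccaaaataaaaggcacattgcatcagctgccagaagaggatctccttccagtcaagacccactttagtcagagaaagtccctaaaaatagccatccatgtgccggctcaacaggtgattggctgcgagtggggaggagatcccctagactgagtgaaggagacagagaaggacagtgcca

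The Cycs promoter holds 1 match to the NRF1 motif GCGCANGCG, starting 158 bases before the gene's start. Sdha holds 3, starting 89, 46 and 1 base before the start. Cox8a holds 2 matches to the ETS motif CCGGAAGT, 58 and 20 bases before the start, and 1 to the ERR motif AAGGTCA, 11 bases after it. Cox6a2 holds none of the motifs searched. Of the 71 members, 63 were matched in the table. The NRF1 motif, named for a transcription factor known to act on nuclear genes of the respiratory chain, was present in 19 of 63 member promoters (30.2%), against 8.1% of 19005 protein-coding promoters. The share was 6 of 12 for complex V, 7 of 27 for complex I and 1 of 9 for complex IV. The ERR motif was present in 8 member promoters (12.7%, against 3.7%), the YY1 motif AAGATGGCG in 7 (11.1%, against 2.3%) and the ETS motif in 6 (9.5%, against 5.0%). The GC-rich SP1 motif GGGCGG, which may overlap others, was present in 28 (44.4%, against 43.1%). The median GC content was 57.3% in member promoters and 55.3% in all. A match describes letters and not binding.

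Markers of other tissue differed between arrays, and their part in the differences below was not tested. The mean level of 16 measured lymphocyte and thymocyte markers ran from 6.17 to 9.68 on coarse arrays, from 6.18 to 7.68 on fine, from 6.02 to 9.66 on ultrafine and from 6.13 to 8.67 on filtered air arrays. The lowest value of the whole table is 5.12. On coarse 1 and 2, fine 2, ultrafine 2 and 7 and filtered air 1 this mean exceeded the median array by 10.9 to 26.3 median absolute deviations, and on coarse 5 and fine 4 by 4.83 and 4.06. Ultrafine 8 had a median correlation with other arrays below a limit of 0.949 without such an excess. These 9 arrays are said to stand apart, and counts and most differences are given with all 27 arrays and with the other 18, which comprised 3 coarse, 4 fine, 5 ultrafine and 6 filtered air arrays. The mean of 14 cardiomyocyte markers was 11.79 to 12.54 on coarse, 12.54 to 12.65 on fine, 11.74 to 12.72 on ultrafine and 12.49 to 12.74 on filtered air arrays. Skeletal muscle markers reached 9.34 on 1 of the 3 coarse arrays left, where the other arrays left ran from 6.64 to 7.64; their part in the coarse values was not tested. In whole tissue, fewer cells of a type and less RNA per cell cannot be told apart.

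The mean over the 69 genes was low on most but not all of these arrays. Relative to the filtered air mean it stood at −0.75 on coarse 1 and −0.76 on ultrafine 7, the arrays with the highest lymphocyte means. It stood at −0.35 on ultrafine 2, −0.24 on filtered air 1, −0.18 on coarse 2 and −0.18 on fine 2. On ultrafine 8, without a lymphocyte excess, it stood at −0.20, and on coarse 5 and fine 4 at −0.01 and −0.02. On the 18 other arrays it lay between 0.07 and 0.13 for coarse, 0.01 and 0.07 for fine, −0.20 and 0.13 for ultrafine, and 0.00 and 0.08 for filtered air. The −0.20 among these was on ultrafine 5, lower than on coarse 2 and fine 2. On ultrafine 7 and coarse 1 the cardiomyocyte mean was also the lowest of all arrays (11.74 and 11.79), as were the fibroblast (8.01 and 8.10) and endothelial means (6.85 and 6.79), and the macrophage mean was the highest (8.08 and 8.01). On coarse 2 and fine 2 the cardiomyocyte mean was 12.52 and 12.58, within the range of the arrays that did not stand apart. The part of other cells in the level of single genes was not tested.

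**Figure D1:**
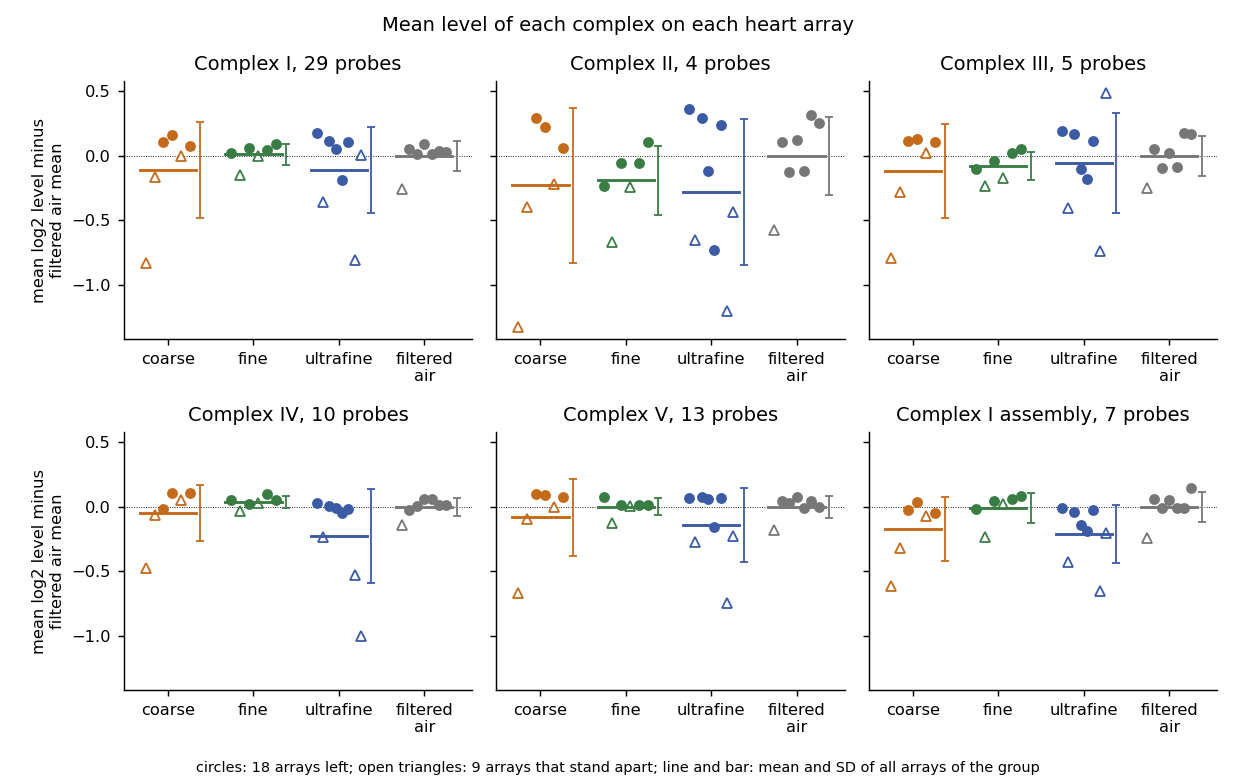
Mean log2 level of each complex on each array, minus the filtered air mean, by group; open triangles are arrays that stand apart, circles the other 18, lines and bars the mean and SD of all arrays of a group. Coarse 1 and ultrafine 7 are low in all 6 panels, complex II reaches −1.33 on coarse 1, and ultrafine 8 is low in complex IV (−1.002) but high in complex III (0.49).

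No gene of the chain was called in any comparison with all 27 arrays by limma at an adjusted p under 0.05. For coarse particles against filtered air 0 of 69 members were called, with 0.00858% of all probes called, and 1 had an unadjusted p under 0.05, against 4.07% of all probes. For fine particles 0 members and 0% of probes were called, and 3 had an unadjusted p under 0.05, against 5.98%. For ultrafine particles 0 members and 0.0686% of probes were called, and 4 had an unadjusted p under 0.05, against 5.28%. Any difference among the 4 groups gave 0 members, 0.0944% of probes, and 4 members with an unadjusted p under 0.05, against 6.92%. Without the 9 arrays, again 0 members were called by limma in each comparison. The shares of all probes called were then 0.24% with coarse, 0% with fine, 0.575% with ultrafine particles, and 0.515% for any difference among the groups, where 8 members (11.6%) had an unadjusted p under 0.05, against 10% of probes. There 8 members (11.6%) had an unadjusted p under 0.05 for coarse particles, against 7.35% of all probes. The same held for 14 members (20.3%) with fine, 10 higher and 4 lower, against 9.55%, and for 6 (8.7%) with ultrafine particles, against 8.81%. The standard error of a member's difference had a median between 0.14 and 0.16 with 27 arrays and between 0.08 and 0.09 with 18 in the comparisons with filtered air.

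With all arrays the members leaned lower in 2 of the 3 exposures, while in the other 18 arrays the coarse lean was to the higher side and the ultrafine lean was smaller. Coarse particles gave 57 members below and 12 above filtered air, with a median difference of −0.11, against −0.004 for all probes. Ultrafine particles gave 61 below and 8 above, with a median of −0.09. Cyclic loess on top of the deposited values gave 36 below and 33 above for ultrafine particles, and 47 below and 22 above for coarse. Fine particles gave 33 below and 36 above, with a median of 0.02. In the 18 arrays coarse particles gave 48 above and 21 below (median 0.04), fine 39 above and 30 below (0.02), and ultrafine 29 above and 40 below (−0.02). With 27 arrays 16 of 16 lymphocyte markers were above filtered air for coarse and for ultrafine particles, with none called. In the 18 arrays 6 and 4 of 16 were, but arrays were left out by the mean of these same markers. That fall is therefore no separate result, and its part in the change of lean was not tested.

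By complex, the coarse differences with all arrays had medians of −0.09 for complex I, −0.17 for its assembly factors, −0.23 for complex II, −0.15 for complex III, −0.02 for complex IV and −0.10 for complex V. Without the 9 arrays these medians were 0.05, −0.04, 0.09, 0.04, 0.04 and 0.06 in the same order. Coarse 1 alone decided the sign for several: without it, the 27-array medians were 0.04 for complex I, 0.01 for complex II, 0.05 for complex IV and 0.02 for complex V. The ultrafine medians with all arrays were −0.09 for complex I, −0.19 for its assembly factors, −0.23 for complex II, −0.06 for complex III, −0.18 for complex IV and −0.09 for complex V. Over the 18 arrays they were −0.01, −0.11, −0.05, −0.02, −0.01 and 0.01. Without ultrafine 7 alone the complex I median was 0.04, that of complex III 0.03 and that of complex V 0.02. For fine particles the medians of complex II were −0.21 with 27 arrays and −0.15 with 18, with 1 of 4 genes above filtered air in each, and those of complex IV 0.08 and 0.06, with 7 of 10 above. The assembly factors were below filtered air with ultrafine particles for 7 of 7 genes with all arrays and for 6 of 7 in the 18.

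**Figure D2:**
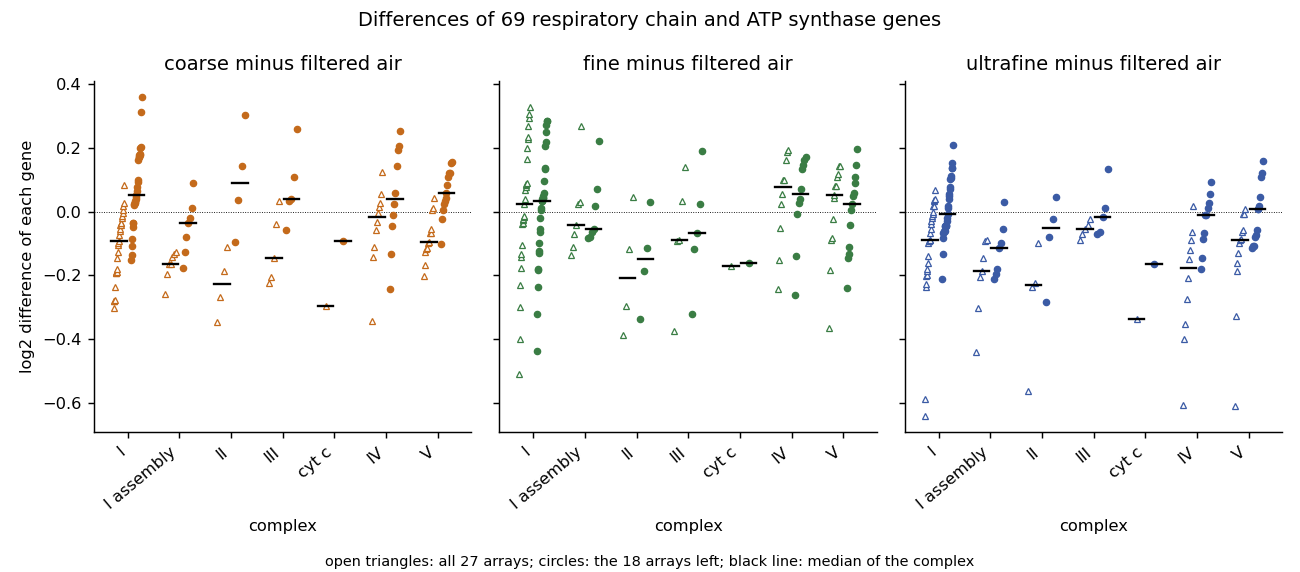
Log2 difference from filtered air of each of 69 genes, by complex, for coarse, fine and ultrafine particles; open triangles are fits with 27 arrays, circles fits with the 18 arrays left, and black lines medians. The coarse medians of complexes I, II, III, IV and V lie below 0 with 27 arrays and above 0 with 18; the fine medians of complex II lie below 0 in both.

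Cycs, which encodes cytochrome c, was at 12.29, 12.98 and 13.26 (lowest, median, highest) on coarse arrays, 12.72, 13.07 and 13.13 on fine, 12.15, 12.90 and 13.24 on ultrafine, and 12.98, 13.20 and 13.30 on filtered air arrays. Each exposed group overlapped the filtered air range, and each had its lowest array among those with a lymphocyte excess. The differences from filtered air were −0.30 (SE 0.15, adjusted p = 0.985) for coarse, −0.17 (SE 0.15, adjusted p = 0.933) for fine and −0.34 (SE 0.14, adjusted p = 0.861) for ultrafine particles, none of which passed. Among the 18 arrays left they were −0.09, −0.16 and −0.16, with adjusted p of 0.904, 0.513 and 0.512. There fine arrays ran from 12.97 to 13.11 and filtered air arrays from 13.11 to 13.30, so the ranges met at one end.

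Complex I takes electrons from NADH. Ndufb7, an accessory subunit of its membrane arm, was at 10.51, 11.66 and 11.89 on coarse, 11.20, 11.88 and 11.98 on fine, 9.02, 11.48 and 11.90 on ultrafine, and 11.63, 11.75 and 12.01 on filtered air arrays. The groups overlapped, and the lows of 10.51 and 9.02 were on coarse 1 and ultrafine 8. Its differences were −0.28 (SE 0.32) for coarse, −0.03 (SE 0.32) for fine and −0.59 (SE 0.29) for ultrafine particles, with adjusted p between 0.883 and 0.999. In the 18 arrays they were −0.11, 0.10 and −0.13, so the fine value changed sign.

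Ndufs8, an iron-sulfur subunit, and Ndufb6, an accessory subunit of the membrane arm, had fine arrays wholly above filtered air, below the test's threshold. Other subunits of the arm did not, and their differences were mixed, among them −0.03 for Ndufb7, −0.02 for Ndufb3, −0.01 for Ndufc2, 0.07 for Ndufb9, 0.09 for Ndufb2 and 0.31 for Ndufb11. Ndufs8 was at 11.61, 11.68 and 11.93 on fine arrays and at 11.14, 11.47 and 11.60 on filtered air arrays, with no overlap. Ndufb6 was at 11.15, 11.21 and 11.34 on fine and at 10.80, 10.94 and 11.08 on filtered air arrays, also with no overlap. They were the 2 of 69 members (2.9%) whose fine and filtered air arrays did not overlap, against 0.652% of all probes; none did so in the lower direction. The difference was 0.33 (SE 0.15, unadjusted p = 0.0329, adjusted p = 0.824) for Ndufs8 and 0.27 (SE 0.15, adjusted p = 0.893) for Ndufb6.

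Both differences kept their size in the 18 arrays. Ndufs8 differed by 0.28 (SE 0.08, adjusted p = 0.37) and Ndufb6 by 0.25 (SE 0.07, adjusted p = 0.35). Ndufb8, another accessory subunit of the arm, differed by 0.29 in both fits (SE 0.15, adjusted p = 0.859 with 27 arrays; SE 0.08, adjusted p = 0.35 with 18). Ndufb11, also of the arm, differed by 0.31 (SE 0.13, adjusted p = 0.824) with 27 arrays and 0.27 (SE 0.08, adjusted p = 0.387) with 18. Without the 9 arrays 5 of 69 members (7.25%) had fine arrays wholly above filtered air, namely Ndufs8, Ndufb6, Ndufa8, Uqcrc1 and Atp5po, against 2.51% of all probes in either direction.

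Other complex I genes gave mixed values with fine particles. Ndufa1, a small accessory subunit, was at 10.09, 10.90 and 11.32 on fine arrays and at 10.74, 11.43 and 11.56 on filtered air arrays, which overlapped. Its difference was −0.51 (SE 0.26, adjusted p = 0.859) with 27 arrays and −0.44 (SE 0.19, adjusted p = 0.492) with 18. Ndufv3, an accessory subunit beside the NADH-oxidising part, was at 6.66, 6.69 and 6.82 on fine arrays and at 6.35, 6.53 and 6.80 on filtered air arrays, with a difference of 0.16 (SE 0.07, adjusted p = 0.824), and of 0.14 (adjusted p = 0.601) with the 18 arrays. This probe was dim, with a mean level of 6.55.

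With ultrafine particles the assembly factors Ndufaf5 and Ndufaf2 had unadjusted p under 0.05 with all arrays. Ndufaf5, which modifies a core subunit of complex I during assembly, was at 6.33, 8.08 and 8.24 on ultrafine and at 8.10, 8.31 and 8.59 on filtered air arrays; the 6.33 was on ultrafine 8, far below the others. The difference was −0.44 (SE 0.18, adjusted p = 0.861), −0.22 without ultrafine 8, and −0.20 (SE 0.07, adjusted p = 0.37) in the 18 arrays. Coarse particles gave −0.18 (SE 0.08, adjusted p = 0.649) there. Ndufaf2, a chaperone of late assembly, was at 6.16, 6.81 and 7.07 on ultrafine and at 6.84, 7.03 and 7.05 on filtered air arrays, with a difference of −0.30 (SE 0.13, adjusted p = 0.875) and of −0.11 (adjusted p = 0.707) in the 18 arrays. Ndufs5, an accessory subunit, and Ndufaf7, a methyltransferase that acts in assembly, both differed by −0.21 in the 18 arrays, with adjusted p of 0.403 and 0.562; with 27 arrays they differed by −0.24 and −0.09. Ndufb6 differed there by 0.21 (SE 0.06, adjusted p = 0.207) with ultrafine and by 0.20 (SE 0.07, adjusted p = 0.49) with coarse particles, values that share their filtered air arrays with the fine one. With all 27 arrays these were 0.04 (SE 0.14, adjusted p = 0.961) and 0.004 (SE 0.15, adjusted p = 0.999).

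Complex II, succinate dehydrogenase, links the citrate cycle to the chain. Sdhc, one of its membrane anchors, was at 11.20, 12.23 and 12.55 on coarse, 12.15, 12.35 and 12.51 on fine, 11.46, 12.44 and 12.74 on ultrafine, and 12.12, 12.50 and 12.75 on filtered air arrays. All groups overlapped, and the lows were on coarse 1 and ultrafine 7. The differences were −0.35 (SE 0.20, adjusted p = 0.985), −0.12 (SE 0.20, adjusted p = 0.993) and −0.22 (SE 0.18, adjusted p = 0.885) for coarse, fine and ultrafine particles. Over the 18 arrays they were −0.10, −0.11 and −0.08, each smaller than its standard error. With all arrays, those that stand apart included, complex II spread more between arrays of a group than any other complex. The SD of its array means within groups was then 0.47, against 0.19 to 0.29 for the others. Its mean, over 4 genes, stood at −1.33 on coarse 1 and −1.20 on ultrafine 7. Over the 18 arrays its SD was 0.121 for coarse, 0.138 for fine, 0.454 for ultrafine and 0.185 for filtered air. The part of single arrays and of the number of genes in this spread was not tested.

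Complex III hands electrons from ubiquinol to cytochrome c. Uqcrc1, one of its core subunits, was at 12.23, 12.28 and 12.32 on the 3 coarse arrays left and between 11.96 and 12.10 on the 6 filtered air arrays left, with no overlap. The difference there was 0.26 (SE 0.07, unadjusted p = 0.00263, adjusted p = 0.258). With all arrays it was 0.03 (SE 0.17, adjusted p = 0.989), with coarse 1 at 11.33, and 0.172 without coarse 1 alone. Among the 18 arrays left 4 of 69 members (5.8%) did not overlap between coarse and filtered air, against 4.92% of all probes: Uqcrc1, Ndufv1 and Ndufa8 were higher and Cox6a1 lower. Uqcrc2, the other core subunit, differed by −0.23 (SE 0.26), −0.38 (SE 0.26) and −0.09 (SE 0.24) for coarse, fine and ultrafine particles with all arrays. With the 18 it differed by 0.11, −0.32 and −0.06, so the coarse value changed sign. With all arrays no member failed to overlap for coarse (0.283% of probes) or ultrafine particles (0.12%).

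Complex IV held the gene with the smallest p of the 69 over all comparisons with 27 arrays. Cox6a1, the widely expressed form of subunit 6a, was at 12.10, 12.26 and 12.51 on coarse, 12.33, 12.46 and 12.62 on fine, 12.11, 12.21 and 12.35 on ultrafine, and 12.29, 12.40 and 12.52 on filtered air arrays. Ultrafine arrays overlapped the filtered air range only at its low end, where filtered air 1 stood at 12.29, and coarse arrays overlapped it through coarse 1, 2 and 6. The means were 12.27 ± 0.15 for coarse (SD, n = 6), 12.47 ± 0.12 for fine (n = 6), 12.21 ± 0.08 for ultrafine (n = 8) and 12.42 ± 0.08 for filtered air (n = 7).

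The ultrafine difference of Cox6a1 was −0.21 (SE 0.06), a level 13.4% below filtered air on the scale of the table, with an unadjusted p of 0.00123 and an adjusted p of 0.35. The coarse difference was −0.14 (SE 0.06, adjusted p = 0.985) and the fine difference 0.05 (SE 0.06, adjusted p = 0.97). Any difference among the groups had an unadjusted p of 0.000481 and an adjusted p of 0.134. In the 18 arrays the coarse arrays, at 12.10, 12.17 and 12.31, and the ultrafine arrays, between 12.21 and 12.35, all lay below the filtered air arrays, between 12.37 and 12.52. The differences there were −0.24 (SE 0.07, adjusted p = 0.235) for coarse and −0.18 (SE 0.06, adjusted p = 0.266) for ultrafine particles. Cox6a1 was the 1 member (1.45%) without overlap between ultrafine and filtered air arrays in the 18, against 1.3% of all probes. With array weights, which lower the influence of arrays that fit poorly, Cox6a1 was called for coarse particles (−0.20, adjusted p = 0.0304). It was the 1 of 69 members (1.45%) called in that fit, which called 1.08% of all probes.

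Cox6a2, the heart and skeletal muscle form of the same subunit, did not show these values. It was at 12.40, 13.12 and 13.18 on coarse, 13.10, 13.18 and 13.42 on fine, 12.41, 13.01 and 13.17 on ultrafine, and 12.93, 13.02 and 13.10 on filtered air arrays. The fine arrays touched the top of the filtered air range, and the coarse and ultrafine lows were on coarse 1 and ultrafine 7. The differences were −0.06 (SE 0.11, adjusted p = 0.985) for coarse, 0.19 (SE 0.11, adjusted p = 0.897) for fine and −0.09 (SE 0.10, adjusted p = 0.895) for ultrafine particles. Without the 9 arrays they were −0.01, 0.16 and 0.03. Whether the 2 forms differ in response was not tested.

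Of the other forms, Cox8b, the muscle form of subunit 8, differed by −0.11, 0.10 and −0.15 for coarse, fine and ultrafine particles, and Cox8a, the widely expressed form, by 0.06, 0.19 and −0.06, with adjusted p between 0.894 and 0.989 for Cox8b and between 0.916 and 0.985 for Cox8a. With the 18 arrays Cox8b differed by 0.02, 0.07 and 0.01 and Cox8a by −0.13, 0.15 and −0.09, so the coarse values of both and the ultrafine value of Cox8b changed sign. Cox4i1, a core-binding regulatory subunit, differed by −0.03, 0.02 and −0.12 with 27 arrays and by 0.14, 0.04 and −0.01 with 18, the coarse value changing sign. Cox7a2l, which helps complexes III and IV associate, differed by 0.12, −0.15 and −0.28, the last with ultrafine 8 at 7.17 and the other ultrafine arrays near 10; the highest ultrafine array stood at 10.38. With the 18 arrays Cox7a2l differed by 0.06, −0.14 and −0.01. Cox6c and Cox7b, small accessory subunits, had unadjusted p under 0.05 in the 18 arrays, at 0.25 (adjusted p = 0.641) with coarse and −0.26 (adjusted p = 0.454) with fine particles. With 27 arrays these were −0.003 and −0.24.

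**Figure D3:**
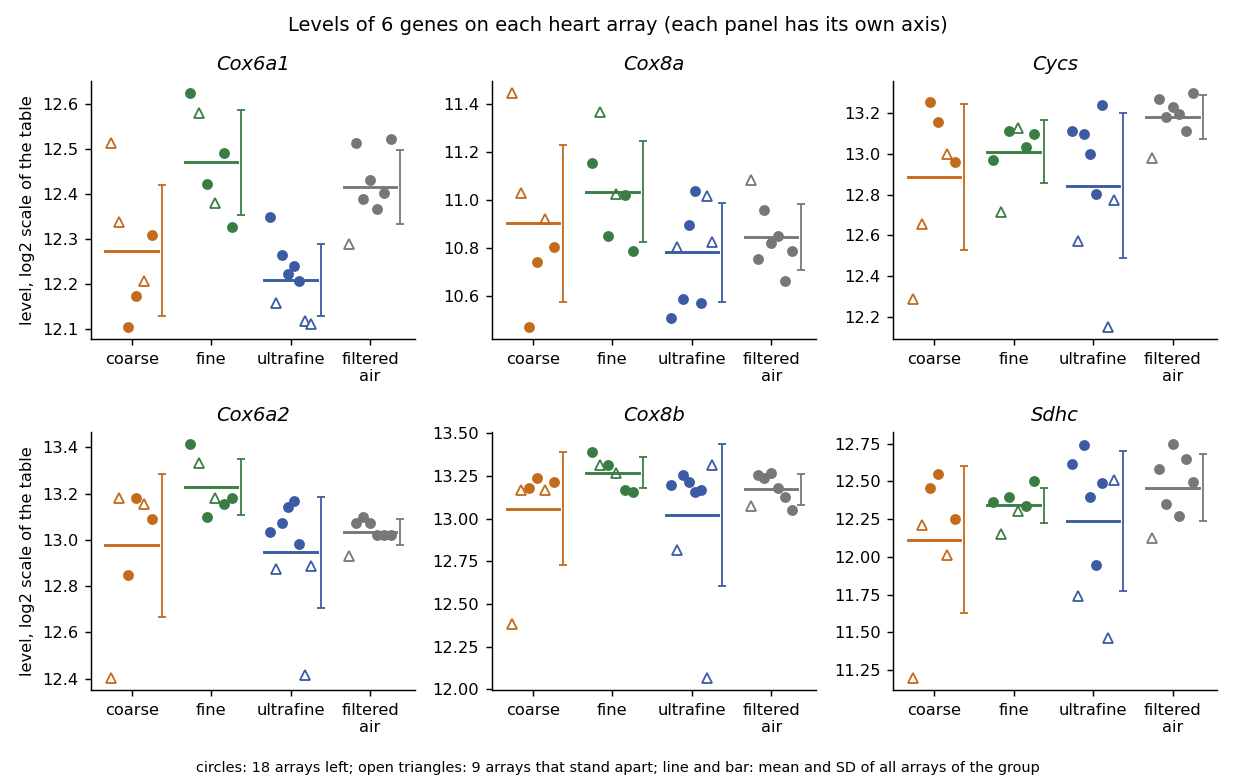
Levels of Cox6a1, Cox8a, Cycs, Cox6a2, Cox8b and Sdhc on each array, on the log2 scale of the table, by group; open triangles are arrays that stand apart, lines and bars the mean and SD of all arrays of a group. On coarse 1 Cox6a2 (12.40) and Cox8b (12.38) are the lowest of their group while Cox8a (11.45) and Cox6a1 (12.51) are the highest.

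On the 2 arrays with the highest lymphocyte means the muscle forms were lower than the widely expressed forms, each against its own median. Relative to the median of the 18 arrays, Cox8b stood at −0.82 on coarse 1 and −1.14 on ultrafine 7, and Cox6a2 at −0.68 and −0.67. Cox8a stood at 0.65 and 0.22 on the same arrays, and Cox6a1 at 0.16 and −0.24. On ultrafine 2, the third array by that mean, Cox6a2 stood at −0.21 and Cox6a1 at −0.20, and Cox8b at −0.39 and Cox8a at 0.01. On coarse 2 Cox6a2 stood at 0.10 and Cox6a1 at −0.02. Of 69 members, 64 stood below that median on coarse 1 and ultrafine 7, and 2, Cox8a and Cox7a2l, above it on both. The part of the marker lists above in these values was not tested.

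Complex V makes ATP. Atp5f1b, its catalytic beta subunit, was at 12.22, 13.73 and 13.97 on coarse, 12.65, 13.38 and 13.77 on fine, 12.40, 13.67 and 14.04 on ultrafine, and 13.32, 13.77 and 13.92 on filtered air arrays, all overlapping. Its differences were −0.20, −0.37 and −0.19 for coarse, fine and ultrafine particles (SE 0.25 to 0.27, adjusted p 0.899 to 0.985), and with the 18 arrays 0.16, −0.24 and −0.06. The 3 genes for the membrane ring subunit c, Atp5mc1, Atp5mc2 and Atp5mc3, encode the same mature protein. Atp5mc1 differed by −0.12, −0.02 and −0.09, and Atp5mc2 by −0.05, 0.14 and 0.01, for coarse, fine and ultrafine particles. With the 18 arrays these were 0.06, −0.04 and 0.05 for Atp5mc1, whose coarse and ultrafine values changed sign, and −0.02, 0.09 and 0.16 for Atp5mc2. Atp5mc3 was at 6.70, 6.94 and 7.02 on coarse, 6.91, 6.98 and 7.32 on fine, 6.51, 6.71 and 7.05 on ultrafine, and 6.74, 6.89 and 7.13 on filtered air arrays. It differed by 0.004, 0.12 and −0.16 from filtered air, with adjusted p between 0.883 and 0.998, and by 0.02, 0.11 and −0.08 with the 18 arrays.

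Between particle sizes no member was called with all arrays. For fine minus ultrafine 0.197% of all probes were called and 12.1% had an unadjusted p under 0.05. The members gave a similar share, 9 of 69, all higher with fine particles. Their direction was not set against that of all probes. Cox6a1 differed by 0.26 (SE 0.06, unadjusted p = 0.000173, adjusted p = 0.0657) and Ndufv3, read by a dim probe, by 0.25 (SE 0.07, adjusted p = 0.11; 0.18 with the 18 arrays, adjusted p = 0.419). Cox6a1 was called there with array weights (0.18, adjusted p = 0.0329; 6.99% of all probes called), with the lymphocyte mean as a covariate (0.27, adjusted p = 0.0239; 1.39%) and without coarse 1 (0.26, adjusted p = 0.0238; 0.523%), fine 6 (0.29, adjusted p = 0.0492; 0.163%) or ultrafine 5 (0.27, adjusted p = 0.0302; 1.44%). It was not called in the other alternative fits, nor on leaving out any other single array. Without the 9 arrays the difference was 0.21 (SE 0.06, adjusted p = 0.153), 0 members were called (0.463% of probes) and 6 had an unadjusted p under 0.05 (8.7%, against 11.2%). No member failed to overlap between fine and ultrafine arrays, with all arrays (0.6% of probes) or with the 18 (3.94%).

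For coarse minus fine 0.0257% of probes were called and 6.58% had an unadjusted p under 0.05. The members gave a similar share, 5 of 69, all lower with coarse particles. Their direction was not set against that of all probes. Cox6a1 differed by −0.20 (SE 0.06, adjusted p = 0.736) and Ndufaf3, an assembly factor of complex I, by −0.41 (SE 0.14, adjusted p = 0.736); with the 18 arrays these were −0.27 (adjusted p = 0.23) and −0.30 (adjusted p = 0.441). Ndufaf3 was at 9.24, 9.93 and 10.10 on coarse and at 10.07, 10.31 and 10.46 on fine arrays, which met at one end. Over the 18 arrays 10 of 69 members (14.49%) did not overlap, 7 higher and 3 lower with coarse particles, against 14.7% of all probes. The 18 arrays gave 0 called members (0.146% of probes) and 8 with an unadjusted p under 0.05 (11.6%, against 9.69%); with all arrays 0 members failed to overlap (0.961%). For coarse minus ultrafine 0% of probes were called, 2.56% had an unadjusted p under 0.05, and 0 members did. With the 18 arrays 5 members (7.25%, against 5.27%) had an unadjusted p under 0.05, 0 being called (0% of probes). No member failed to overlap with all arrays (0.0343% of probes), and 1 did, Atp5mg, with the 18 (1.45%, against 3.96%). The 2 members with the smallest p there were Atp5mc3 (0.17, SE 0.08, adjusted p = 0.999) and Atp5mk, a small membrane subunit of complex V (0.54, SE 0.33, adjusted p = 0.999; 0.17 without ultrafine 8). With the 18 arrays they differed by 0.10 and 0.20 (adjusted p = 0.856 and 0.832).

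On ultrafine 8 some genes were very low while others of the same complex were not. Its mean over complex I was 0.006 relative to filtered air, but 10 of 69 members (14.49%) stood more than 1.5 below the median of the 18 arrays, against 3.69% of all probes. The lowest were Ndufa2 (−3.50), Atp5mk (−3.26), Cox7b (−3.04), Cox7a2l (−2.85), Sdha (−2.82) and Ndufb7 (−2.79), followed by Atp5pf (−2.25), Cox5a (−2.17), Cox6c (−2.04) and Ndufaf5 (−1.90). Others stood above it, up to 0.93 for Ndufa10, 0.83 for Ndufaf7 and 0.81 for Atp5pd, and all 5 complex III genes were above. On coarse 1, by contrast, 8 members (11.59%) stood more than 1.5 below, against 0.82% of probes, and 316 probes but 0 members stood as far above. On ultrafine 8 only 4 of all probes stood as far above.

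**Figure D4:**
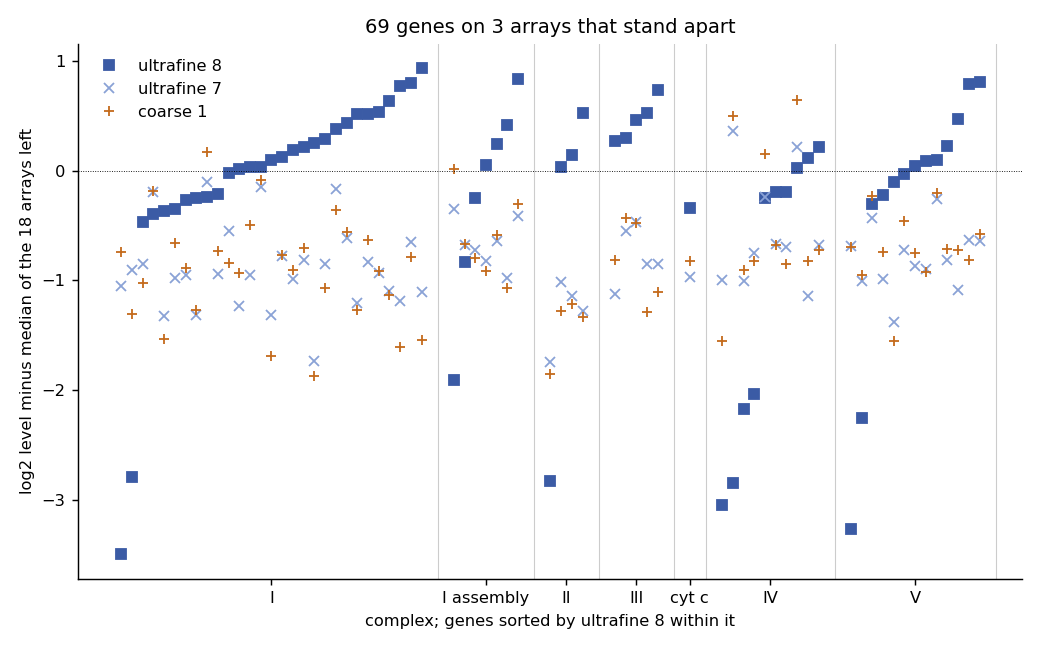
Log2 level of each of 69 genes on ultrafine 8, ultrafine 7 and coarse 1 minus the median of the 18 arrays left, by complex, sorted by ultrafine 8. Coarse 1 and ultrafine 7 are low for most genes, while on ultrafine 8 10 genes fall between −1.90 and −3.50 and the rest scatter around 0.

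Members varied together across arrays. On values minus group means, the median Pearson r between pairs of members was 0.59 over 27 arrays, against 0.01 for all pairs of tested probes, as a description of points that share normalization and tissue mix. It was 0.63 within and 0.58 between complexes. Among the 18 arrays left it was 0.12, against 0.00 for all pairs. There it was 0.72 within complex II, 0.58 within complex III and 0.19 within complex I, against 0.06 for complex IV and −0.01 for complex V.

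Within those 18 arrays 9 of 69 members (13%) had an SD within groups over 0.25, against 8.0% of all probes. These genes were picked out after their values were seen. They were Ndufs1, a large iron-sulfur subunit of complex I (0.46), Sdhd, the other membrane anchor of complex II (0.44), Sdha, its flavoprotein (0.42), Uqcrc2, a core subunit of complex III (0.35), Ndufa1 (0.33), Ndufa10 (0.30), Atp5f1b (0.29), Ndufv1, which binds NADH (0.29), and Ndufa10l1 (0.28). Each had a positive r with Sdhd, from 0.64 to 0.96 over the 8 others, and a negative r with Cox8a, from −0.58 to −0.88. In all, 27 of 68 members had an r with Sdhd over 0.5 and 8 had one under −0.5, among them Ndufs8, Ndufb11, Ndufv3, Ndufaf3 and Cox6a2. With Cox8a, 28 of 68 members had an r under −0.5 and 6 had one over 0.5.

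The genes most like Sdhd were Uqcrc2 and Uqcrfs1, the Rieske subunit of complex III (r = 0.96 each, n = 18). Sdhd was at 11.91, 11.74 and 11.64 on coarse 3, 4 and 6, at 11.01, 11.38, 11.40 and 11.76 on fine 1, 3, 5 and 6, at 11.89, 11.81, 11.10, 10.47 and 11.94 on ultrafine 1, 3, 4, 5 and 6, and at 11.72, 11.34, 11.50, 11.38, 12.23 and 12.17 on filtered air 2 to 7. It was thus high on filtered air 6 and 7 and low on ultrafine 5 and fine 1, with wide overlap between groups. On filtered air 6 and 7 Cox8a was at 10.66 and 10.79, and on ultrafine 5 and fine 1 at 11.04 and 11.15. Sdha and Cox8a, whose promoters are printed above, had an r of −0.88 in these arrays, among the lowest of all member pairs. They were picked for varying in opposite directions, and a link to their promoters was not tested. The mean of 17 beta oxidation genes was 10.26 on ultrafine 5, the lowest of the 18 arrays, where the red cell (10.24) and macrophage (7.98) lists were at their highest of the 18 and the skeletal muscle list stood at 7.64. Their part was not tested.

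**Figure D5:**
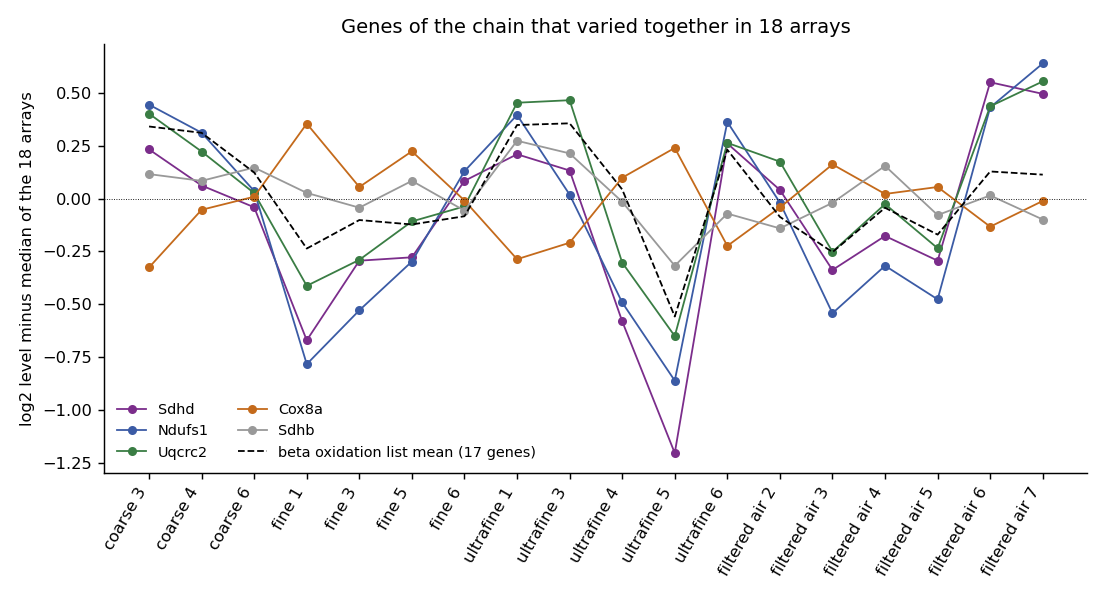
Levels of Sdhd, Ndufs1, Uqcrc2, Cox8a and Sdhb and the mean of 17 beta oxidation genes on each of the 18 arrays left, minus each one's median over them. Sdhd, Ndufs1 and Uqcrc2 rise and dip on the same arrays, with Sdhd lowest on ultrafine 5 at 10.47; Cox8a goes the other way, and Sdhb stays closer to 0.

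Genes that feed or control the chain were examined as lists of measured genes, and with all arrays 0 were called in any list or comparison with filtered air. With coarse particles 15 of 18 citrate cycle and pyruvate dehydrogenase genes, 19 of 25 further assembly factors, 15 of 21 regulators of mitochondrial gene expression, 11 of 14 ubiquinone genes, 7 of 10 carriers of ATP, phosphate and protons and 9 of 17 beta oxidation genes were below filtered air. With ultrafine particles these counts were 13 of 18, 16 of 25, 10 of 21, 12 of 14, 6 of 10 and 9 of 17 in the same order, and with fine particles 12 of 18, 11 of 25, 10 of 21, 10 of 14, 6 of 10 and 10 of 17. The share of all probes is not given beside these counts, which include the arrays that stand apart. The citrate cycle list mean was 9.05 on coarse 1 and 9.07 on ultrafine 7, but 10.38 on ultrafine 8. Its medians were 10.11 on coarse and 10.14 on ultrafine arrays. The part of single arrays in the counts was not tested. In the 18 arrays 17 of 17 beta oxidation genes stood above filtered air with coarse particles, with a median of 0.28, and 16 of 18 citrate cycle genes, with a median of 0.14, against 51.4% of all probes. With fine particles 6 of 17 and 7 of 18 stood above there (medians −0.03 and −0.02), against 51.3%, and with ultrafine 11 of 17 and 7 of 18 (medians 0.04 and −0.07), against 49.2%.

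In those 18 arrays a few fuel genes were called where no gene of the chain was. Pdk4, the kinase that shuts off pyruvate dehydrogenase, rose 3.25-fold with coarse (adjusted p = 0.0122) and 3.5-fold with ultrafine particles (adjusted p = 0.000726). Ech1, an enzyme of beta oxidation of unsaturated fatty acids, rose 1.4-fold with coarse (adjusted p = 0.027) and 1.47-fold with ultrafine particles (adjusted p = 0.00101). Cpt1a, which admits fatty acids to mitochondria, rose 1.52-fold (adjusted p = 0.00651) and Ucp3, an uncoupling protein of muscle, 1.51-fold (adjusted p = 0.00186) with ultrafine particles. No gene of these lists was called for fine particles there, where 0% of all probes were called. The share of all probes called was 0.24% with coarse and 0.575% with ultrafine particles.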

How the data were processed

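Heart RNA was hybridised to Illumina bead arrays. The deposited table holds log2-like values made by the authors with lumi 1.5.17, per the submitters' processing notes; whether these are plain log2 or variance-stabilised values is not given in the sources used here, so a fold is on that scale. The sorted values of each array differed from those of the first array by at most 0.0185. Of 32 arrays hybridised per the series' design text, 27 were analysed here. Groups came from the labels. The 11657 probes with the highest mean, a number the series' design text gives, were kept (mean of at least 5.789) and fitted together with limma 3.58.1 in R 4.3.3 (lmFit and eBayes), with Benjamini-Hochberg adjustment over all kept probes and a threshold of 0.05. Every adjusted p is from limma. The fit was tested on simulated data. Gene names came from the platform annotation and RefSeq: 13192 probes had 1 symbol and 9034 none.

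Arrays stood apart when the lymphocyte mean exceeded the median of all arrays by over 3 median absolute deviations or the median correlation fell below 0.949. The members and lists were chosen with earlier results of these data known. Genes named were Cycs, Sdhc and Ndufb7, the members with the largest differences at an unadjusted p under 0.05 against filtered air, the smallest p per complex and per pair of sizes, sets of isoforms, and called genes of the other lists; further genes were chosen after their values were seen. Alternatives changed the filter, normalization, probes per gene, variance model, array weights, replicate block, samples in the fit, arrays left out and a lymphocyte covariate. A wider limit of 10 deviations was chosen after seeing the data.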

Additional observations from a re-analysis of the deposited data

Results flagged for a closer look

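Of 140 groups of arrays examined, 41 held a highest or lowest array far from the rest. Chance gives about 1 in 20 for independent groups. These groups share the same arrays, and many genes were named for their differences, so that rate is no fair standard here. Most were arrays that stand apart, and their part was not tested.

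The complex means are relative to the filtered air mean. On coarse 1 the mean stood at −0.83 for complex I, −0.47 for complex IV, −0.667 for complex V and −0.752 for all members. On fine 2 it stood at −0.148 for complex I, −0.23 for its assembly factors, −0.125 for complex V and −0.176 for all members. On ultrafine 7 complex V stood at −0.748. On filtered air 1 complex I stood at −0.254, its assembly factors at −0.238, complex V at −0.182 and all members at −0.24.

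Single genes were far from their group on coarse 1, where Cox7a2l was high at 10.513 and the others were low: Atp5mc1 at 12.959, Cox4i1 at 12.359, Cox8b at 12.383, Ndufaf3 at 9.235, Ndufb11 at 11.796, Ndufb6 at 10.237, Ndufb7 at 10.506, Ndufb8 at 11.182, Ndufs5 at 11.76 and Ndufs8 at 10.698. Ndufaf5 was low on coarse 2, at 7.856. Atp5mc3 was high on fine 1, at 7.319, and Ndufb7 low on fine 2, at 11.2.

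On ultrafine 7 Atp5mc1 was low at 12.846, Atp5mc2 at 10.609, Cox4i1 at 12.512, Cox6a2 at 12.414 and Cox8b at 12.064. On ultrafine 8 Ndufaf7 was high at 7.875, and Atp5mk at 7.773, Cox6c at 6.981, Cox7a2l at 7.171, Cox7b at 10.051, Ndufaf5 at 6.334 and Ndufb7 at 9.019 were low. On filtered air 1 Cox7b was low at 12.551 and Ndufaf2 at 6.837.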

How the results depend on the processing

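Across the filter, normalization, variance, weighting, covariate and array alternatives tried, 78 of 83 counts of called members stayed at 0, the value reported, and 5 were higher. A count of 0 could only stay or rise. With array weights limma called 1 member for coarse minus filtered air (Cox6a1; 1.08% of all probes called), 2 for coarse minus fine (0.472%), 8 for fine minus ultrafine, 4 higher and 4 lower (6.99%), and 2 for any difference among the groups (3.38%). With the lymphocyte mean as a covariate it called 1 for fine minus ultrafine (1.39%). Leaving out single arrays gave 0 to 2 members for fine minus ultrafine, the 2 without ultrafine 5 (1.44% of all probes) and 1 each without coarse 1 (0.523%), fine 6 (0.163%) or ultrafine 4 (0.532%), and 0 to 1 for any difference, the 1 without coarse 1 (0.18%). The median r between members was 0.122 without the 9 arrays and 0.125 with the wider limit.

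Some small differences turned direction. Cox6c, coarse minus filtered air, was 0.011 with cyclic loess, 0.192 with array weights, 0.254 without the 9 arrays, 0.24 with the wider limit and 0.123 with the covariate, and −0.088 to 0.148 leaving out single arrays. Ndufb7, fine minus filtered air, was 0.057 with array weights, 0.097 without the 9 arrays and 0.059 with the wider limit, and −0.069 to 0.086 leaving out single arrays. Ndufb6, ultrafine minus filtered air, was −0.012 with the replicate block and −0.012 to 0.157 leaving out single arrays. Uqcrc1, coarse minus filtered air, was −0.042 with the replicate block and −0.025 to 0.172 leaving out single arrays. Sdhc, ultrafine minus filtered air, was 0.029 with array weights. The cause was not tested. The replicate block gave 0 called members in every comparison. Same-numbered arrays had a median r of 0.341 over 37 pairs (−0.717 to 0.873), against 0.008 over 235 pairs with other numbers, and 26 of 74 correlated best with their own number, a hint from the data and not the design. As 23 of the 37 and not all were over 0.1, the numbers were not taken to pair the arrays. That choice does not show that the arrays were unpaired, and the main fits ignored any pairing. Signal over background was not available here, and 6 to 8 arrays a group limit what can be called.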

Other observations

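The 2 members too dim to be tested lay near the bottom of the scale in each group. Ndufs4, an accessory subunit of complex I, had a median of 5.54 with coarse, 5.48 with fine and 5.45 with ultrafine particles, and of 5.41 with filtered air. Cox8c, a form of subunit 8 known from testis, had a median of 5.66 with coarse, 5.71 with fine and 5.58 with ultrafine particles, and of 5.72 with filtered air.

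In the 18 arrays Pnpla2, which encodes the lipase that starts the breakdown of stored fat, rose 1.57-fold with coarse (adjusted p = 0.021) and 1.53-fold with ultrafine particles (adjusted p = 0.00436), by limma. Lipe, which encodes hormone-sensitive lipase, rose 1.91-fold with ultrafine particles (adjusted p = 0.00159). Neither was called with all 27 arrays.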
